A study of Mus musculus with 4 samples.

Results

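The natriuretic peptide genes and their receptors were followed here through the modification of their CCGG sites in mouse left ventricle after myocardial infarction. The members were 6 genes, Nppa, Nppb, Nppc, Npr1, Npr2 and Npr3, chosen by name and not by any measured value, although earlier results of these data were known. Each gene was taken as its annotated span in mm10 plus 5 kb on either side, and Nppa and Nppb, which are neighbours on chromosome 4, were joined into a single stretch, so that 5 regions resulted. Of 174 CCGG sites listed in these regions in at least 1 sample, 166 were listed in all 4 samples and were used, out of 996020 such sites in the series.

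The series held 4 samples, each of genomic DNA extracted from left ventricle 3 days after an induced infarction, from C57BL/6 mice aged 8 weeks. They were wild-type non-infarcted tissue, wild-type infarcted tissue, Neil3-null (Neil3-/-) non-infarcted tissue and Neil3-null infarcted tissue, and values are given in that order throughout. Neil3 encodes a DNA glycosylase, a repair enzyme that removes oxidised bases. Each group was 1 sample, so no difference between a pair of samples has a replicate check. All 4 were taken after infarction, and sham-operated hearts were not analysed here. The labels do not say whether infarcted and non-infarcted tissue came from the same hearts, whether animals were pooled, or how the Neil3 allele was made.

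The assay, HMST-seq, sequenced short tags beside CCGG sites from 3 libraries per sample. HpaII cuts a CCGG site when its inner cytosine carries no modification, and gave the "C" library. MspI cuts whether or not that cytosine is modified, and gave the "C+mC+hmC" library. In the "C+mC" library, called BGT in the deposited columns, 5-hydroxymethylcytosine (5hmC) was glucosylated first, which protects it from MspI. From the summed signals of a region, the unmodified index was 100 × HpaII / MspI, the 5-methylcytosine (5mC) index was 100 × (BGT − HpaII) / MspI and the 5hmC index was 100 × (MspI − BGT) / MspI. The libraries of a sample had like totals, so an index is relative: the median autosomal site had an unmodified index of 98.6 to 99.4% across the samples, values above 100% occur, and the other indices can fall below 0.

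Natriuretic peptides are hormones that lower blood pressure and act on heart, vessel, kidney and bone. Nppa encodes atrial natriuretic peptide (ANP) and Nppb encodes brain natriuretic peptide (BNP), which cardiomyocytes release on stretch, and Nppc encodes C-type natriuretic peptide, made mainly by endothelium and cartilage. Npr1 and Npr2 encode guanylyl cyclase receptors that make cyclic GMP, the first for ANP and BNP and the second for C-type peptide, while Npr3 encodes the clearance receptor, which takes the peptides up. Nppa and Nppb are classic markers of ventricular stress, and their transcription rises after infarction. The files hold DNA modification and no expression, so neither that rise nor the tissue label could be checked here.

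The sequences just upstream of the starts show how unevenly the assay can see these genes. The 250 bases before the start are given for the 3 peptide genes and Npr1, in RefSeq's GRCm38.p6 (the assembly behind mm10), 5′ to 3′ on the coding strand with every CCGG in capitals. Nppa lies on the plus strand at chr4:148000472-148000721, Nppb on the plus strand at chr4:147985650-147985899, Nppc on the minus strand at chr1:86670574-86670823 and Npr1 on the minus strand at chr3:90465867-90466116.
Nppa: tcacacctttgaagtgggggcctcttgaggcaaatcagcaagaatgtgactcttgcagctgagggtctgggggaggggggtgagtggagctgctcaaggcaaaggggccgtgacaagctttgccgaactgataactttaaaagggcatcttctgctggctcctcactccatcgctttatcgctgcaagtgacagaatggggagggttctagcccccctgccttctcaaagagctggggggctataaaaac
Nppb: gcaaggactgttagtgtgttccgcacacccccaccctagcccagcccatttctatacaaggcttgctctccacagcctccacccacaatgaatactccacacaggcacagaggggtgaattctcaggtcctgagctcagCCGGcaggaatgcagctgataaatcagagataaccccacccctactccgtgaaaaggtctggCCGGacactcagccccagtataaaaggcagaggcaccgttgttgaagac
Nppc: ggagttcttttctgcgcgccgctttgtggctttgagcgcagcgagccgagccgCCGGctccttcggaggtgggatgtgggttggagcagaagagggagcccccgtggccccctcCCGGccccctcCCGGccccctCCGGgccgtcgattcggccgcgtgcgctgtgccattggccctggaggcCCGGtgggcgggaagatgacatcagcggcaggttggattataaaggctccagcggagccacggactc
Npr1: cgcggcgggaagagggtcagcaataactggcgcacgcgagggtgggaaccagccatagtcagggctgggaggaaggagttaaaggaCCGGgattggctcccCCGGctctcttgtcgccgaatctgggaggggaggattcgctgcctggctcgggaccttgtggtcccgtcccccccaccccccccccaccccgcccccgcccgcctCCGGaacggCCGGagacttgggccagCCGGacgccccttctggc

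In the RefSeq window from 250 bases before to 50 bases after the start, Nppa and Npr3 had no CCGG, so the assay has no site there. Nppb had 2 such sites, both listed in all 4 samples, at -111 and -49 from the start. Nppc had 6, of which only the one at -197 was listed, and Npr1 had 5, of which only the one at -18 was listed. Npr2 had 4, of which only the one at -203 was listed. Over the 31396 RefSeq promoter windows on autosomes, 53.5% held a CCGG and 39.3% held a listed one. Across those windows, 18.2% of CCGGs with a neighbouring CCGG within less than 40 bp were listed, against 69.3% of those with none within 100 bp in the window. The closest pairs were 10 bp apart in Nppc and 9 bp apart in Npr1. The letters TATAAA, searched on both strands, were found once each in the Nppa, Nppb and Nppc windows and in 13.6% of all windows. TGATAA, a spelling of the GATA motif searched on both strands, was found once in Nppa and once in Nppb, and in 9.03% of all windows. AGATAA, which shares its last 5 letters with TGATAA, was found in Nppb only among the 6 genes, and in 11.2% of all windows.

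Across the series, the 4 samples listed 1060295 to 1079784 sites, and library totals ran from 34161766 to 43985354 units of deposited signal, lowest in the 3 wild-type infarcted libraries. The BGT library of the wild-type non-infarcted sample stood apart: over shared sites its correlation across sites with its own MspI library was 0.534, against 0.698 to 0.725 in the other samples. That library enters the 5mC and 5hmC values of the wild-type infarct comparison and of the non-infarcted genotype comparison, and does not enter any unmodified index. At Neil3 itself, 23 sites were listed in at least 1 sample, and 1 of them was listed in both wild-type samples and in neither Neil3-null sample. The labels do not give the deleted part, so this count does not check the genotype.

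The unmodified indices of the regions differed more between genes than between samples. The joined Nppa-Nppb region (chr4:147980786-148007074, 25 sites) had 129.6, 145.3, 130.2 and 144.1%. Both infarcted samples were above both non-infarcted ones. The medians over 17745 protein-coding gene windows with at least 5 sites, built the same way, were 112.2, 117.4, 115.3 and 118.0%.

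**Figure D1:**
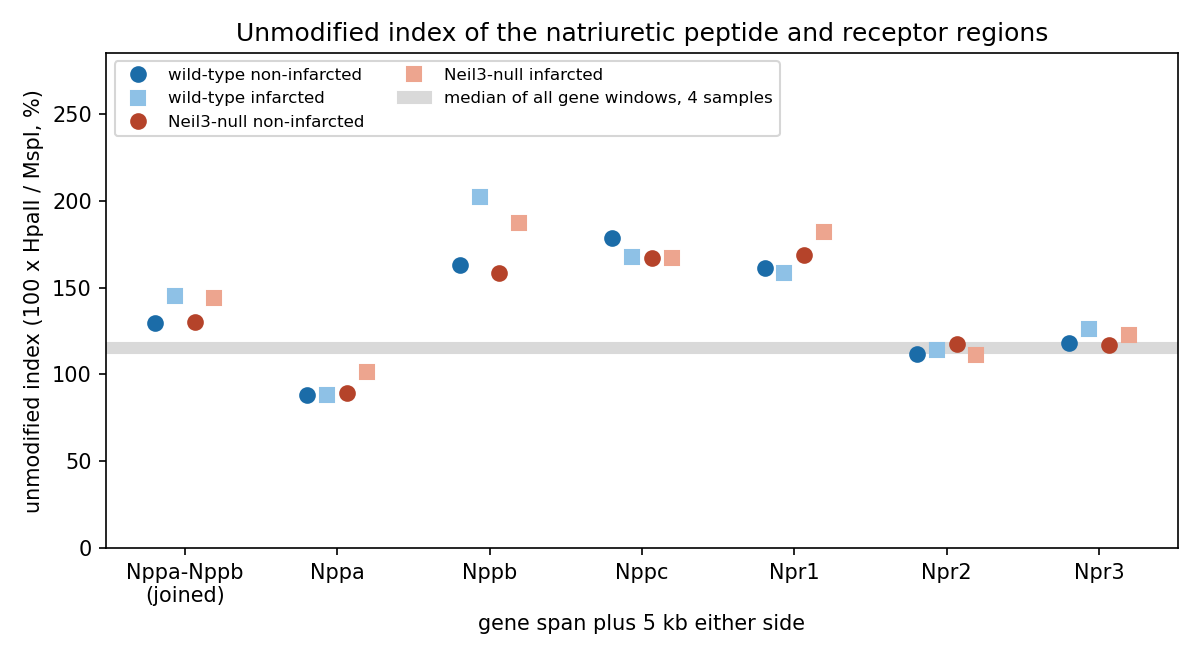
Unmodified index (100 × HpaII / MspI, in %) of each gene span plus 5 kb either side, with 1 point per sample, and a grey band for the range of the 4 samples' medians over all gene windows. Nppb, Nppc and Npr1 sit above the band and Nppa sits below it in all 4 samples, while Npr2 and Npr3 lie on or near it.

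Within that stretch the neighbouring peptide genes were unlike. Taken alone (a division added after seeing the data), the Nppb window had 163.1, 202.3, 158.7 and 187.2% over 10 sites. The Nppa window had 88.4, 88.5, 89.4 and 101.3% over 12 sites. The lowest Nppb value lay above the highest Nppa value, and the mean over samples was higher than in 88.8% of gene windows for Nppb and in 21.4% for Nppa. Among the other members, Nppc (chr1:86661293-86675573, 14 sites) had 178.3, 167.6, 166.9 and 167.1%, with the wild-type non-infarcted sample at the top. Npr1 (chr3:90445591-90470928, 30 sites) had 161.3, 158.6, 168.5 and 181.7%, highest in Neil3-null infarcted tissue. Both Nppc and Npr1 were above at least 85.6% of gene windows by their mean. The cyclase receptor for C-type peptide, Npr2 (chr4:43624015-43656437, 47 sites), had 112.0, 113.9, 117.6 and 111.3%. The clearance receptor Npr3 (chr15:11834896-11912837, 50 sites) had 118.3, 126.1, 117.2 and 122.9%. Ordered by the mean over samples, the levels ran Nppb, Nppc, Npr1, Npr3, Npr2 and Nppa, and the samples' ranges overlapped between Nppb, Nppc and Npr1 and between Npr3 and Npr2. The joined region overlaps the neighbouring gene Clcn6, the Npr2 region overlaps Spag8 and Hint2, and the Npr3 region overlaps the noncoding gene Gm5144.

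Around the transcription starts, within 1 kb on either side, the genes were further apart. The 3 Nppa sites there summed to an unmodified index of 77.3, 82.4, 85.6 and 109.9%. Of 14167 start windows with at least 3 sites, 6.52% had a mean below that of Nppa, and their median was 217.3%. Nppb, less than 15 kb away, had 279.7, 384.7, 275.6 and 309.6% over 6 sites, above 79.5% of start windows. Npr1 had the highest start window of the members, 418.3, 356.4, 395.3 and 426.6% over 4 sites, above 90.1% of start windows. Npr3 had 277.3, 219.6, 247.5 and 251.9% over 4 sites, Nppc 202.4, 190.8, 196.8 and 195.5% over 7, and Npr2 175.2, 160.8, 185.7 and 167.6% over 8. Nppa was the one member whose start window stayed under 110% in every sample, and none of its 3 listed sites lies upstream of the start.

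**Figure D2:**
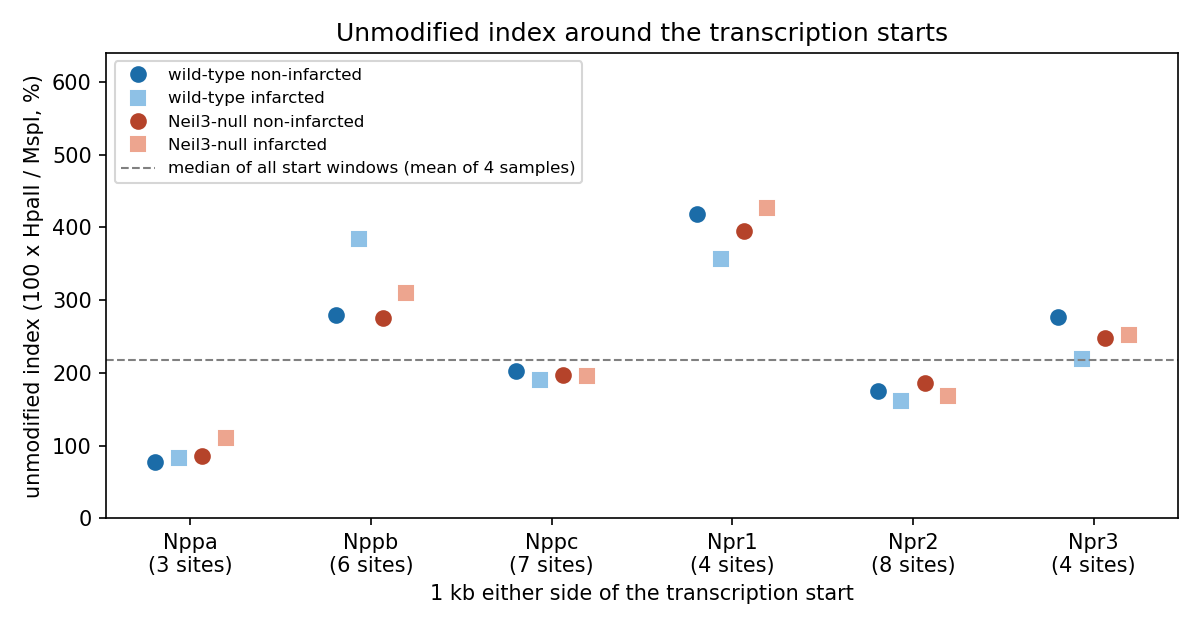
Unmodified index within 1 kb of the transcription start of each gene, in %, with 1 point per sample and a dashed line at the median of 14167 start windows. Nppa lies at 77.3 to 109.9%, under the line in all 4 samples, and Nppb, Npr1 and Npr3 lie above it in all 4.

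The single sites also differed between the neighbouring peptide genes. The 2 listed Nppb promoter sites, inside the annotated gene span, gave strong HpaII signals. The site at -111 (chr4:147985789) had HpaII signals of 111, 117, 87.9 and 97.5 and MspI signals of 36.8, 26.1, 36.0 and 28.8. The site at -49 (chr4:147985851) had HpaII signals of 136, 117, 122 and 113 and MspI signals of 61.2, 36.1, 50.5 and 43.6. At both, the HpaII signal exceeded the MspI signal in every sample, and the 2 infarcted MspI signals lay below both non-infarcted ones. In Nppa, the strongest site by MspI lay within the gene (chr4:148001088), with HpaII signals of 60.4, 52.8, 64.3 and 64.9 and MspI signals of 119, 99.4, 115 and 100.2. There HpaII was below MspI in every sample, and the site's unmodified index ran from 50.9 to 64.8%. At the strong site chr4:148004521, inside the neighbouring Clcn6 span, the HpaII signal was 67.0 and 75.5 in the non-infarcted samples and 37.2 and 45.3 in the infarcted ones. Its unmodified index was 62.9, 48.1, 67.0 and 38.0%, lower in infarcted tissue of both genotypes.

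**Figure D3:**
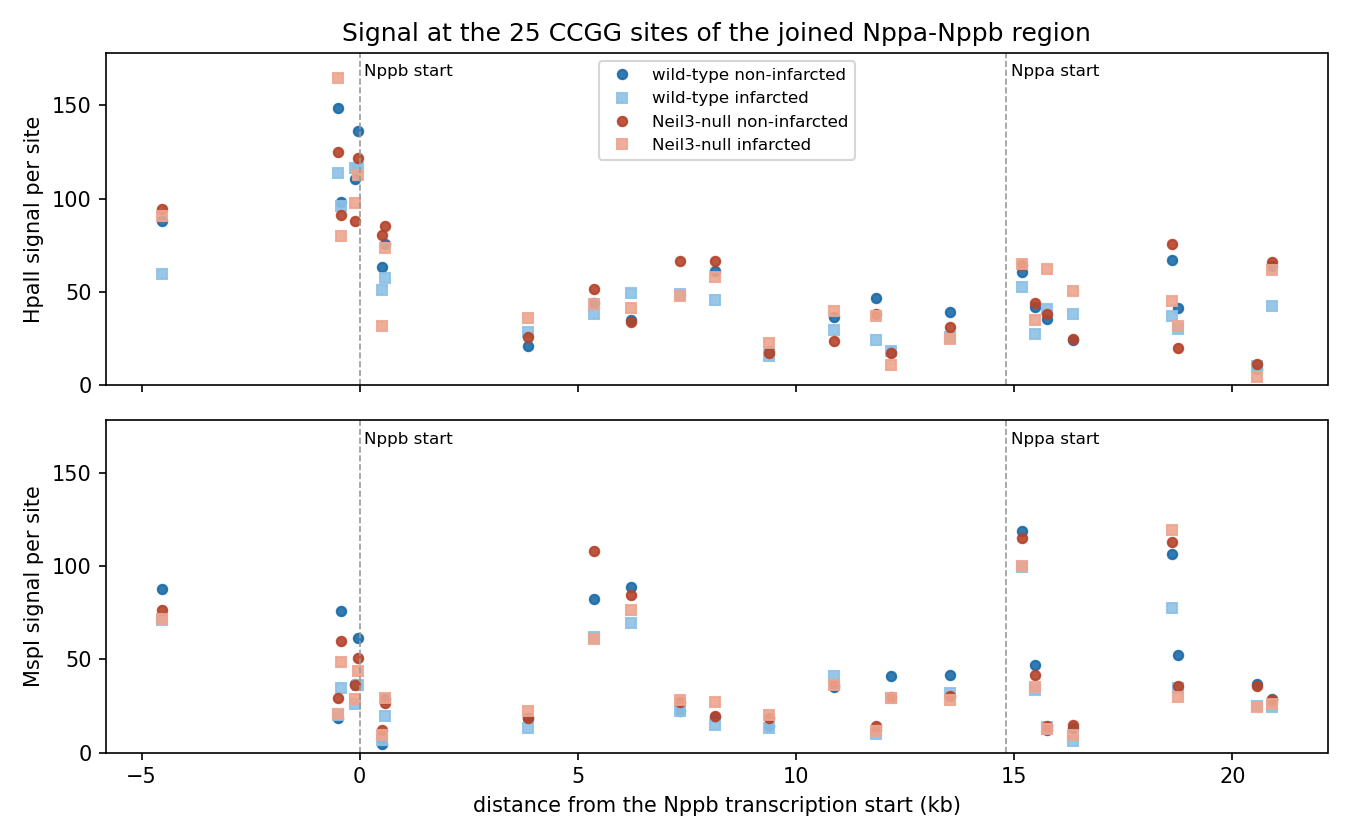
HpaII signal (upper panel) and MspI signal (lower panel) at each of the 25 sites of the joined region, in deposited signal units, against the distance in kb from the Nppb start, with 1 point per sample. The highest HpaII signals stand within 1 kb of the Nppb start, where MspI signals run from 4.66 to 75.8, and the highest MspI signals stand inside and downstream of Nppa.

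The first comparison was infarcted against non-infarcted tissue within each genotype. The Nppa-Nppb region was 15.7 percentage points higher in unmodified index in infarcted wild-type tissue and 13.9 points higher in infarcted Neil3-null tissue. The median gene window was higher by 4.88 and 2.24 points. A difference of at least 20 points was counted as past the size rule. By that rule 0 of the 5 regions were higher or lower in either genotype, against 10.3% of gene windows higher and 2.59% lower in wild type, and 5.55% higher and 1.96% lower in Neil3-null. With 2 kb in place of 5 kb on either side, Nppa-Nppb was past the rule in both genotypes, at 24.8 and 23.2 points. By the median of site indices, Nppa-Nppb was 27.6 points higher in wild type and Npr1 differed by -29.0 points. The Nppb window alone was 39.2 points higher in infarcted wild-type and 28.6 points higher in infarcted Neil3-null tissue, above 98.2 and 97.6% of gene windows. The Nppa window alone was 0.07 points higher in wild type and 11.9 points higher in Neil3-null, where it was 24.3 points higher over the gene span alone and 34.2 points higher with 2 kb flanks. In Neil3-null, then, the summed windows of both peptide genes were higher in infarcted tissue with 2 kb and 5 kb flanks. For Nppa that rise was not shared by all sites, and over the gene span alone the Nppb difference was -16.3 points. In bulk DNA, a change in which cells make up the tissue and a change within cells cannot be told apart.

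**Figure D4:**
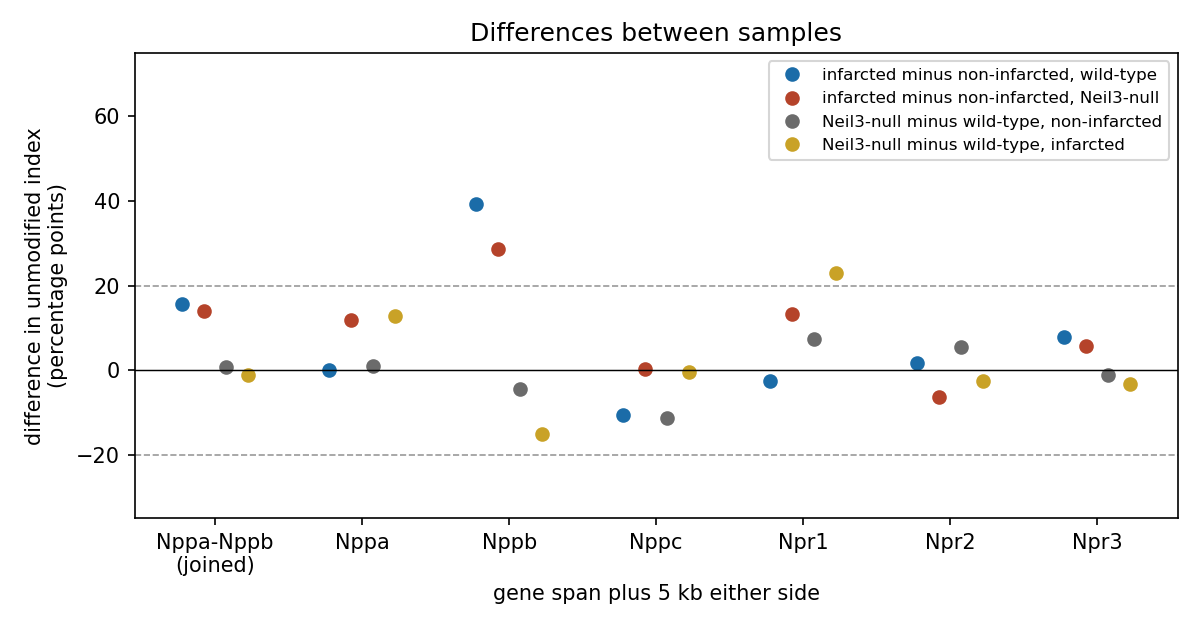
Difference in unmodified index, in percentage points, for each gene span plus 5 kb, with 1 point for each of the 4 comparisons and dashed lines at the 20-point rule. Nppb lies above the upper line in both infarct comparisons (39.2 and 28.6 points), and Npr1 lies above it for Neil3-null against wild type in infarcted tissue (23.1 points).

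The Nppb difference came with a lower MspI share in both genotypes. As a share of the autosomal MspI total, the Nppb window in infarcted tissue was 0.874 times that in non-infarcted tissue in wild type and 0.819 times in Neil3-null. As a share of the HpaII total it was 1.04 and 0.951 times. Within 1 kb of the Nppb start, the MspI share ratios were 0.775 and 0.841 and the HpaII share ratios 1.02 and 0.930. MspI cuts whether the inner cytosine is unmodified, methylated or hydroxymethylated, and what lowered its share at Nppb was not tested. For the joined region the MspI share ratio was 0.926 in wild type, and 10.2% of gene windows were lower still. In Neil3-null it was 0.880, with 1.27% of gene windows lower. Npr1 also had a low MspI share ratio in Neil3-null, 0.902, with 2.72% of gene windows lower, while its wild-type ratio was 1.01. The Nppa window had 0.955 in wild type and 0.907 in Neil3-null.

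**Figure D5:**
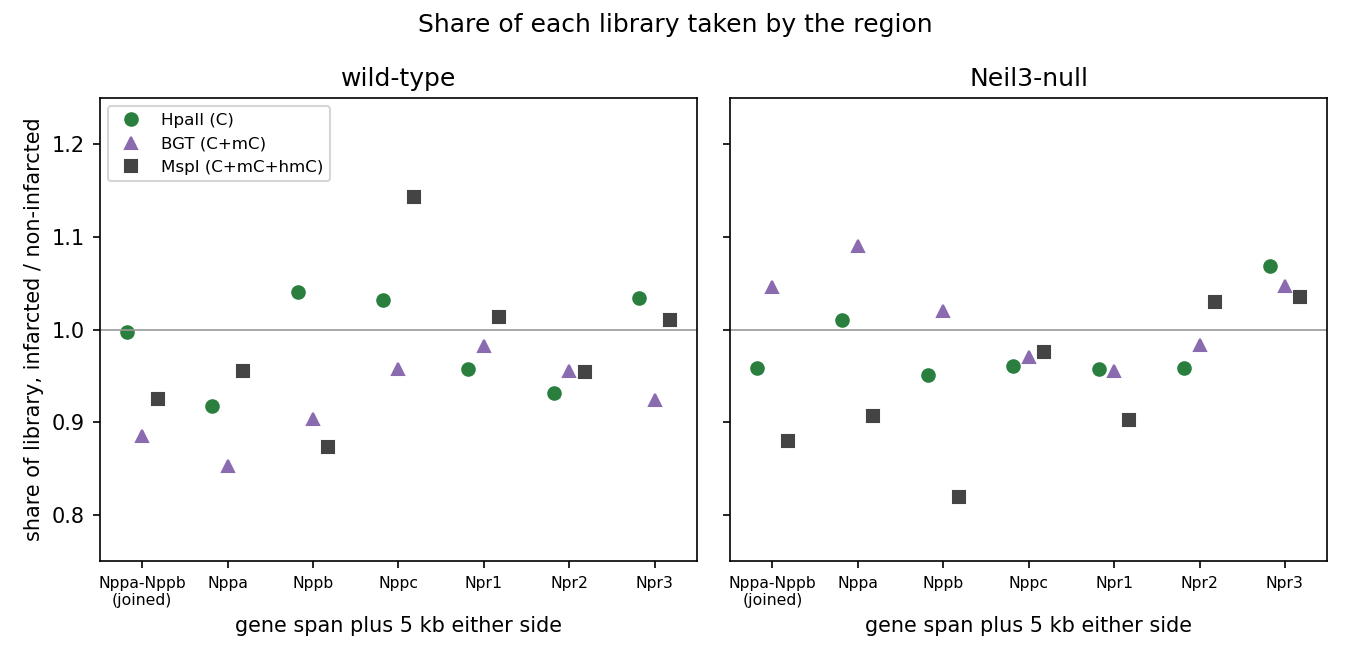
Share of each library taken by a region in infarcted tissue divided by its share in non-infarcted tissue, with HpaII, BGT and MspI drawn apart, for wild type (left) and Neil3-null (right). The Nppb MspI points lie lowest among the MspI points in both panels (0.874 and 0.819), while the Nppb HpaII points lie at 1.04 and 0.951.

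An additive limma fit over all 4 samples, with tissue and genotype terms and 1 residual degree of freedom, used the genotypes as replicates of the infarct effect and assumed no interaction. For Nppb, log2(HpaII / MspI) was 0.27 higher in infarcted tissue (SE 0.0626), with a limma p of 0.0033 and a Benjamini-Hochberg adjusted p of 0.223. For the joined region it was 0.16 higher (SE 0.0612, limma adjusted p 0.350). Nppa was 0.09 higher, Npr3 0.08 higher and Npr1 0.04 higher, and the values for Npr2 and Nppc were -0.03 and -0.04, with limma adjusted p from 0.603 to 0.870. The median gene window was itself 0.046 higher in infarcted tissue, and the Npr1 value lay below that. None of the members passed the adjusted threshold of 0.05, and 0 (0%) of 17745 windows did, while 2316 windows (13.1%) had an unadjusted limma p under 0.05. With only sites of a mean signal of at least 10, the Nppa value was -0.004 and that of the joined region 0.12. Nppb stayed 0.27 higher in that setting. The limma fit of the MspI share alone, added after seeing the data, gave Nppb -0.24 (SE 0.0464, adjusted p 0.524), and that of the HpaII share gave -0.01 (adjusted p 0.952). The wild-type Nppb difference was 2.67 points when each site's index was limited to the range from 0 to 100%, and the Neil3-null one 8.76 points. The 6 sites within 1 kb of the Nppb start were above 100% in every sample. That limit holds them at 100% throughout, so it cannot show a difference at them. The Neil3-null difference, which changed sign over the gene span alone (4 sites), was 13.1 points without the site chr4:147985404, which is named for that effect after its values were seen.

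That site lies at -496 from the Nppb start, outside the gene span. Its HpaII signal was 148, 114, 125 and 164, and its MspI signal was only 18.7, 19.9, 29.3 and 20.7. Its unmodified index was 796, 571, 426 and 792%, lower in infarcted wild-type and higher in infarcted Neil3-null tissue. The site at -421 (chr4:147985479) carried the largest rise in wild type among Nppb sites moving the same way in both genotypes, with an index of 129.6, 277, 152 and 164%. Its HpaII signals were 98.3, 96.0, 91.0 and 80.0, and its MspI signals were 75.8, 34.6, 59.9 and 48.7. The site at -111 had an index of 301, 446, 244 and 339%, and the site at -49 had 223, 323, 241 and 259%. Both were higher in infarcted tissue of each genotype. The other listed sites in the gene span differed. The site at 515 from the start (chr4:147986415) had an index of 1358, 761, 666 and 329%, lower in infarcted tissue of both genotypes. Its mean MspI signal was only 8.26. The site at 584 (chr4:147986484) had 261, 290, 319 and 250%, lower in infarcted Neil3-null tissue only. Leaving out chr4:147986415 gave a Neil3-null window difference of 37.7 points, and the gene span alone gave -16.3 points. Over the 25 sites of the joined region, 10 were higher in both genotypes, 5 were lower in both and 10 moved in opposite directions. For all autosomal sites the shares were 26.7, 26.2 and 47.1%, and the departure of these 25 sites from them was not tested.

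The other members had smaller infarct differences. Nppc was 10.6 points lower in infarcted wild-type tissue (unmodified difference -10.6) and differed by 0.18 points in Neil3-null. Its one listed promoter site, at -197 (chr1:86670767), had HpaII signals of 184, 194, 191 and 216 and MspI signals of 32.1, 56.6, 41.2 and 52.9. The MspI signals were higher in both infarcted samples, and the site's unmodified index was 574, 343, 464 and 409%. For Npr1 the difference was -2.63 points in wild type and 13.2 points in Neil3-null. For Npr2 it was 1.82 and -6.30 points. For Npr3 it was 7.83 and 5.72 points. Of the 5 regions, Nppa-Nppb and Npr3 were the ones with a higher index in infarcted tissue of both genotypes, as the median gene window also was. By the median of site indices the wild-type Npr3 difference was -13.2 points.

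Among Npr1 sites, the one in the promoter at -18 (chr3:90465881) had HpaII signals of 113, 118, 135 and 131 and MspI signals of 18.9, 17.0, 15.2 and 13.9. A site within the gene (chr3:90456664) had an index of 25.3, 49.7, 39.7 and 63.7%. It was 24.4 points higher in infarcted wild-type and 24.0 points higher in infarcted Neil3-null tissue, with MspI signals of 113 and 97.9 in non-infarcted and 60.7 and 65.2 in infarcted tissue. The Npr2 site at -203 (chr4:43631732) was strongly HpaII-cut, with signals of 95.2, 88.8, 86.3 and 85.7 against MspI signals of 9.71, 9.79, 12.4 and 11.9. The strongest Npr2 site by MspI (chr4:43653062, inside Spag8) had the reverse, HpaII signals of 22.8, 24.6, 32.5 and 17.8 against MspI signals of 196, 127, 176 and 182. Within the Npr3 gene, the site chr15:11907147 had an index of 761, 544, 648 and 499%, lower in infarcted tissue of both genotypes. The strongest Npr3 site by MspI (chr15:11887611) had an index of 14.98, 21.0, 22.8 and 16.9% and was low in every sample. Over all 166 sites, 49 were higher in infarcted tissue of both genotypes, 43 were lower in both and 74 moved in opposite directions. On all autosomal sites these classes held 26.7, 26.2 and 47.1%.

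A limma fit of the same additive form was run on 912550 autosomal sites with a mean signal of at least 10, of which 160 were member sites. For log2((HpaII + 1) / (MspI + 1)), 0 member sites passed an adjusted p of 0.05 for the infarct effect, and 0 (0%) of all sites did. At an unadjusted limma p under 0.05 there were 7 member sites (4.38%), against 6.78% of all sites. For log2((BGT + 1) / (MspI + 1)), 12 member sites (7.5%) had an unadjusted limma p under 0.05 against 6.63% of all sites, and 0 passed the adjusted threshold against 0.0123% of all sites. The lowest limma p of any member site was that of chr15:11907147, 224 bp inside Npr3 from its start, at -1.63 on the log2 scale (adjusted p 0.156). Its BGT signals were 95.6, 25.4, 45.6 and 35.9 and its MspI signals 14.8, 22.2, 18.7 and 26.9. The highest BGT signal there belongs to the library that stood apart, and within Neil3-null alone the BGT signal was 45.6 and 35.9.

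The second comparison was Neil3-null against wild type within each tissue. In non-infarcted tissue the unmodified index was higher in Neil3-null by 0.69 points for Nppa-Nppb, 7.27 for Npr1 and 5.605 for Npr2. The difference was -11.3 points for Nppc and -1.05 for Npr3, and 0 of the 5 regions passed the size rule, against 3.69% of windows higher and 2.58% lower. In infarcted tissue Npr1 was 23.1 points higher in Neil3-null and was the 1 region of 5 past the rule, against 3.42% of windows higher and 4.60% lower. The differences for Nppa-Nppb, Nppc, Npr2 and Npr3 were -1.15, -0.51, -2.52 and -3.16 points. The Npr1 difference lay above that of 97.8% of windows, and it came with an HpaII share 1.04 times and an MspI share 0.913 times that of wild type. It was 19.2 points without the site chr3:90460402, 16.6 points with 10 kb on either side and 3.85 points with site indices limited to the range from 0 to 100%.

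Along Npr1, the 21 sites of the gene outside the start window had an unmodified index of 118.3, 115.4, 132.1 and 139.4%, higher in Neil3-null in both tissues. The 4 start sites were 22.9 points lower in non-infarcted Neil3-null tissue (difference -22.9) and 70.2 points higher in infarcted Neil3-null tissue. The 5 flank sites had 254.9, 282.2, 236.4 and 257.4%. They were lower in Neil3-null in both tissues, with differences of -18.6 points in non-infarcted and -24.9 points in infarcted tissue. Of the 30 Npr1 sites, 15 were higher in Neil3-null in both tissues, 4 were lower in both and 11 moved in opposite directions. Over all autosomal sites, 25.4% were higher in both, 25.4% lower in both and 49.2% moved in opposite directions. The site chr3:90460402, within the gene, had an index of 111, 61.7, 118 and 115%, with HpaII signals of 99.2, 52.6, 109 and 86.1. Its wild-type infarcted value was the low one. In the limma fit, log2(HpaII / MspI) of Npr1 was 0.13 higher in Neil3-null (SE 0.0661, adjusted p 0.833; 0.0113% of windows passed 0.05), and the other members had limma adjusted p from 0.877 to 0.997. The median gene window was 0.024 higher in Neil3-null. Taken alone, Nppb differed by -4.496 points in non-infarcted and by -15.1 points in infarcted Neil3-null tissue, and Nppa was 1.03 and 12.9 points higher. By the median of site indices the non-infarcted Nppb difference was 22.2 points, in the other direction. In infarcted tissue the Nppb difference ran from -4.09 to -31.8 points when single sites were left out. It was -101.7 points over the gene span alone and -112.7 points by the median site. The median values 22.2 and -112.7 equal the differences of 1 site, chr4:147985479, so they rest on that site. The infarcted Nppa difference was 27.5 points over the gene span alone (3 sites).

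The 5mC and 5hmC indices rest on the BGT library and varied more. The Nppa-Nppb region had 5mC indices of -4.46, -26.6, -16.6 and -9.11% and 5hmC indices of -25.1, -18.7, -13.7 and -35.03%. Its 5mC index differed by -22.1 points with infarction in wild type and by 7.47 points in Neil3-null. The wild-type difference changed sign, to 1.23 points with 10 kb flanks and to 5.09 points with each site's HpaII / MspI and BGT / MspI limited to the range from 0 to 100%. It was -15.5 points with equal library totals, -9.22 points when scaled on dense CCGG sites and -13.9 points relative to the median window, all short of the rule. It was the 1 region of 5 lower by the size rule in wild type, where 25.5% of windows were, and in Neil3-null 0 of 5 were against 7.58%. For a higher 5mC index 0 of 5 regions passed in either genotype, against 2.14% of windows in wild type and 1.78% in Neil3-null. Its 5hmC index was 6.42 points higher with infarction in wild type, and the difference was -21.4 points in Neil3-null, which does not use the library that stood apart. That was the 1 region of 5 past the rule for lower 5hmC in Neil3-null, where 1.11% of windows were. It was -18.5 points with 10 kb flanks, -8.22 by the median of site indices and -8.61 with site ratios limited as above. For Nppc the 5hmC index was 25.2 points higher with infarction in wild type and 0.70 points higher in Neil3-null. In wild type it was the 1 region of 5 past the rule, where 14.5% of windows were higher and 1.98% lower. The wild-type Nppc difference was -0.49 points with site ratios limited, 8.91 by the median of site indices and 19.4 over the gene span alone. In Neil3-null 0 of 5 were higher, against 2.48% of windows. In the genotype comparisons 0 of 5 regions passed the rule for either index. The shares of windows past it in non-infarcted tissue were 2.91% higher and 14.1% lower for 5mC, and 9.74% higher and 2.21% lower for 5hmC. In infarcted tissue they were 6.59% higher and 3.63% lower for 5mC, and 1.78% higher and 2.45% lower for 5hmC.

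Of the 5 regions, Npr2 alone had a 5mC index above 0 in all 4 samples, at 14.8, 12.1, 7.67 and 8.33%. The Nppa window taken by itself was above 0 in all 4 as well, at 22.8, 10.1, 5.31 and 12.6%, with a mean above that of 88.6% of gene windows. The Npr2 mean exceeded that of 86.9% of gene windows, although its unmodified index lay near the median. Npr3 had a 5mC index of -11.6, -29.2, -17.4 and -22.0% and a 5hmC index of -6.67, 3.12, 0.21 and -0.92%. Npr1 had the lowest 5mC index of the 5 regions in 3 of the 4 samples, at -40.8, -42.8, -46.8 and -52.7%. Nppc had 5hmC indices of -49.3, -24.0, -31.9 and -31.2%, with the wild-type non-infarcted value standing lowest. Limma adjusted p for log2(BGT / MspI) and log2(HpaII / BGT) passed 0.05 for 0 members and for 0% of windows in the infarct term.

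The wider pathway was described by 32 other genes of natriuretic peptide processing, cyclic GMP signalling and cardiac transcription, all of them measured. In the infarct comparison 2 were higher and 1 lower by the size rule in wild type, and 1 was higher and 0 lower in Neil3-null, beside the 10.3, 2.59, 5.55 and 1.96% of all windows given above. Rgs2, a regulator of G-protein signalling that cyclic GMP-dependent kinase acts on, was 26.8 points higher in wild type and 37.2 points higher in Neil3-null. Its unmodified index was 308, 335, 337 and 374% over 7 sites. Nkx2-5, a cardiac transcription factor, was 31.4 points higher in wild type and 9.57 in Neil3-null. Ostn, which encodes osteocrin, a ligand of the clearance receptor, had 109.0, 86.3, 121.8 and 107.0% over 9 sites, with differences of -22.7 and -14.8 points. The cyclic GMP-inhibited phosphodiesterase gene Pde3b was 16.6 points higher in Neil3-null, while its wild-type difference was -2.35 points. The soluble guanylate cyclase genes Gucy1b1 (-8.12 points in wild type) and Gucy1a2 (-7.18 points in Neil3-null) came next among the lowest differences. The list's median difference was 5.98 points in wild type and 1.12 in Neil3-null, beside 4.88 and 2.24 for all windows. In the genotype comparisons 2 genes were higher and 0 lower in each tissue, beside 3.69% of all windows higher and 2.58% lower in non-infarcted and 3.42% higher and 4.60% lower in infarcted tissue, with list medians of 3.12 and 1.13 points beside 3.12 and 0.55 for all windows. Over the gene span alone, 31 genes were measured, and 1 was higher and 0 lower with infarction in each genotype. By genotype, that setting gave 1 higher and 0 lower in non-infarcted tissue, and 1 higher and 1 lower in infarcted tissue. The shares over all gene spans were not computed, so these gene-span counts cannot be judged as many or few.

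Likeness to each region was measured as the root mean square difference in the 3 indices over the 4 samples, 12 values in all. The nearest gene windows to Nppa-Nppb were Vsig10 (4.58 points) and Mroh6 (4.69). Those to Nppc were Pi16 (4.61) and Olfml1 (4.88), and those to Npr1 were Ppm1m (6.14) and Adgra2 (6.14). Npr2 was nearest to Pcca (3.41) and Pgap6 (3.60), and Npr3 to Bcl9 (2.30) and Pknox2 (2.51). Of the 5 regions, Npr3 thus had the closest match and Npr1 the loosest. Nearest distances of other windows were not set beside these, so whether the order is particular to these genes was not tested.

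Of the 8 sites not listed in every sample, 6 were in the Npr3 region, 1 in Npr1 and 1 in Npr2. At least 53 of the 56 Npr3 sites were listed in each sample.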

How the data were processed

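Genomic DNA of 4 samples was analysed, 1 per group. The authors deposited, for each sample, a signal, normalized by the authors, for every listed CCGG site in each of 3 libraries (HpaII, BGT, MspI) on mm10, the build in the submitters' processing notes; how the signal was normalized, the tag depth and the aligner were not stated in the sources used here, so no counting error can be attached. The deposited position counts from 0, and 1 was added. Sites listed in all 4 files were summed per gene span plus 5 kb, spans from the RefSeq gene table (GRCm38.p6), which gives no exons. Index differences of 20 percentage points or more were counted as past the size rule. Additive fits used limma 3.58.1 in R 4.3.3 with Benjamini-Hochberg adjustment over all windows or sites, and were tested on simulated data. Samples within a group were not replicated, so the fit measures how far 4 samples depart from additivity. The members, the pathway list and the tests were chosen with earlier results of these data known. Named sites were, per region, the 3 strongest by MspI, listed promoter sites, and the 2 largest rises and 2 largest falls. Those rises and falls were shared by both genotypes, among sites with a mean MspI signal of at least 20. Not all named sites are printed. The Nppb sites chr4:147985404, chr4:147986415 and chr4:147986484 were named outside this rule, after their values were seen. Named pathway genes were the 2 largest rises and 2 largest falls per infarct comparison. Alternatives covered flank, minimum signal, scaling, the summary over sites and single sites left out.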

Additional observations from a re-analysis of the deposited data

Results flagged for a closer look

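Effects were set side by side for 5mC, 5hmC and unmodified indices between genotypes and between tissues in 42 pairs, and 23 pairs had opposite signs. Those in which both sides reached 10 points, a minimum chosen after seeing the data, are given here. With 1 sample per group, none of these differences was tested.

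For the joined Nppa-Nppb region, the 5mC index of Neil3-null minus wild type was -12.1 points in non-infarcted and 17.5 points in infarcted tissue, 29.6 points apart. Its 5hmC index was 11.4 points higher in Neil3-null in non-infarcted tissue, and the difference was -16.4 points in infarcted tissue, -27.8 points apart. For the Nppa window alone, the 5hmC index was 12.6 points higher with infarction in wild type, and the difference was -19.2 points in Neil3-null, -31.8 points apart. By genotype, the same Nppa index differed by 16.5 points in non-infarcted and -15.3 points in infarcted tissue. That gap is -31.8 points by construction, since both ways compare the same 4 values, and it is not a separate observation. All 4 use the BGT library of the wild-type non-infarcted sample, the one that stood apart, and its part in them was not tested.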

How the results depend on the processing

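Of 340 recomputed unmodified index differences, over all regions, comparisons and alternatives, 312 kept their side of the 20-point rule and 69 changed sign. No paired analysis was possible because each group has 1 sample and no replicate numbers; the genotype term of the additive limma fit is the only block. The scaling on sites with at least 10 neighbours was not run, since 3 sites met it; 5 neighbours (3047 sites) were used instead, chosen after seeing the data.

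Infarct difference, wild type: Nppa-Nppb was 24.8 points with 2 kb flanks and 27.6 by the median site; Npr1 was -29.0 and Npr3 -13.2 by the median site; Nppb was 2.67 with site indices limited to 0 to 100%. Infarct difference, Neil3-null: Nppa-Nppb was 23.2 with 2 kb flanks and 7.71 to 21.7 leaving out single sites; Nppa was 24.3 over the span, 34.2 with 2 kb flanks and 5.24 to 27.5 leaving out sites; Nppb was -16.3 over the span, 12.9 with 10 kb flanks, 12.5 by the median site, 8.76 limited and 13.1 to 37.7 leaving out sites. Neil3-null minus wild type, infarcted: Npr1 was 16.6 with 10 kb flanks, 18.6 on dense-site scaling, 3.85 limited and 19.2 to 29.1 leaving out sites; Nppa was 27.5 over the span, 28.0 with 2 kb flanks, 21.7 by the median site and 8.70 to 25.9 leaving out sites; Nppb was -101.7 over the span, -75.1 with 2 kb flanks, -112.7 by the median site and -31.8 to -4.09 leaving out sites. In non-infarcted tissue Nppb was 22.2 by the median site. The Nppb median-site values 12.5, -112.7 and 22.2 equal the differences of the single site chr4:147985479.

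At 10 points, 2 of the 5 regions were past the rule in the wild-type infarct comparison, Nppa-Nppb at 15.7 and Nppc at -10.6 points. Of all windows, 29.9% were higher and 7.69% lower. In the Neil3-null infarct comparison 2 were past it, Nppa-Nppb at 13.9 and Npr1 at 13.2 points (19% higher, 8.01% lower). In the non-infarcted genotype comparison 1 was, Nppc at -11.3 points (16.7% higher, 8.03% lower). In infarcted tissue by genotype, 0 were past 30 points (1.09% higher, 1.66% lower). On dense-site scaling 0 were past 20 points there, a count with no share of windows to set beside it.

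5mC and 5hmC differences that reversed: wild-type infarct 5mC of Nppa-Nppb 1.23 with 10 kb flanks and 5.09 limited, and of Nppb 7.56 limited; wild-type infarct 5hmC of Nppc -0.49 limited; infarcted genotype 5mC of Nppa -33.7 over the span and -27.6 with 2 kb flanks, and of Nppb -1.02 limited; 5hmC of Nppb by the median site 13.8 (Neil3-null infarct) and -31.3 (non-infarcted genotype). The cause was not tested. In limma, windows of at least 10 sites gave Nppb an infarct adjusted p of 0.082, with 41 windows called higher and 1 lower where 0 were called among all windows.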
